A study of Mus musculus with 7 samples.

Results

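Type 2 innate lymphoid cells (ILC2s) sorted from rejecting mouse heart grafts were profiled by RNA sequencing, and the 4 graft libraries are described here on their own. They are 4 of the 7 libraries of the study, chosen by their sample titles, and the 3 libraries of naive hearts were not used. Hearts of Balb/C donors were placed in C57BL/6 (B6) recipients, a fully mismatched pairing that ends in acute rejection, and the grafts were taken on day 7. Each library was a pool of CD45+ Lineage- ST2+ cells sorted from 4 to 7 dissociated hearts and was labelled a biological replicate, so that the spread given below is between pools and not between animals. No genotype, transgene, drug, age or sex is named for these animals. The sort did not separate donor from recipient cells, and the 2 sources cannot be told apart here.

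ILC2s are lymphocytes without rearranged antigen receptors that sit in tissues and answer alarm signals of damaged cells. Interleukin 33, interleukin 25 and TSLP reach them through receptors encoded by Il1rl1 (ST2), Il17rb and Crlf2, and the transcription factors GATA3 and RORα and the regulator ID2 set up and keep their identity. Stimulated ILC2s are known for the type 2 cytokines IL-5 and IL-13, for GM-CSF, for the growth factor amphiregulin and for a metabolism that draws on mitochondria, fatty acids and arginine.

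Levels are given as FPKM, fragments per kilobase of gene scaled to the depth of the library, the only deposited unit in which different genes can be set beside each other. All 52110 identifiers with a gene symbol were ranked by their mean FPKM over the 4 libraries. A mean of at least 1 FPKM was reached by 11608 named genes, at least 10 FPKM by 3914 and at least 100 FPKM by 657, and 27389 had no count in any of the 4 libraries. The steadiness of a gene is given as its coefficient of variation (CV), the SD over the 4 libraries as a percentage of the mean. Total counts were 44023726, 32406822, 40859450 and 29107326 in libraries 1 to 4, and a count of 0 allows up to 3 counts, or 0.0681 to 0.103 CPM (counts scaled to the library total). Spearman's rho between library pairs, across genes, which are not independent replicates, was 0.906 to 0.931, and 9.47% to 14.1% of genes differed more than 2-fold within a pair. These are bulk values, so fewer cells of a type and less RNA per cell cannot be told apart.

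The genes that define ILC2s were present in every library. Id2, which restrains the E proteins of other lymphocyte lineages, was at 1919, 1630, 1763 and 1541 FPKM in libraries 1 to 4 (1713 ± 165, SD, n = 4) and ranked 28 among all named genes. Gata3 was at 163, 167, 154 and 191 FPKM (169 ± 15.6, rank 377). Rora was at 83.2, 108, 104 and 105 FPKM (100.1 ± 11.5, rank 657), lowest in library 1. Il1rl1, whose protein ST2 was the handle of the sort, was at 65.2, 94.9, 77.1 and 90.7 FPKM (82.0 ± 13.5, rank 785). Libraries 1 and 3 were the lower ones for Il1rl1, whereas they were the higher ones for Id2. Of all named genes at 10 FPKM and more, 33.3% had libraries 1 and 3 above libraries 2 and 4, and 18.2% below. Within each library Id2 exceeded Gata3 by 10.3 ± 1.70-fold and Gata3 exceeded Rora by 1.70 ± 0.225-fold, both in 4 of 4 libraries. The order of Gata3 and Rora rests on division by gene length, without which Rora ranked 69 and Gata3 ranked 180. Ptprc, the gene of CD45, was at 24.6 ± 7.30 FPKM, and the ILC surface gene Thy1 at 30.9 ± 8.81 FPKM. All 4 markers of the labelled cell type ranked among the 1000 highest named genes.

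A small number of genes held most of the signal. The highest gene held 3.81% of all FPKM of named genes, the 10 highest 13.6%, the 100 highest 39.9% and the 1000 highest 75.3%, and 196 genes held 50%. Tmsb4x, which encodes the actin-binding peptide thymosin β4, led at 17174, 14275, 14154 and 16866 FPKM (15617 ± 1625). It was the highest gene in every library. B2m, the light chain of MHC class I, followed among protein-coding genes at 6563, 4481, 5691 and 4805 FPKM (5385 ± 937), and Ubb, a polyubiquitin gene, was at 4450 ± 587 FPKM. Nfkbia, the NF-κB inhibitor that NF-κB itself induces, was at 4749, 3924, 3984 and 4045 FPKM (4176 ± 385), and the histone gene H3f3b at 3822 ± 712 FPKM. Of the 100 highest genes, 20 encoded cytoplasmic ribosomal proteins, 9 lay on the mitochondrial chromosome, 15 belonged to the metabolic genes listed for this work, 4 to the transcription factors, 3 to the receptors and 3 to the cytokines. These groups overlap, since genes such as mt-Atp6 and mt-Co1 count both as mitochondrial and as metabolic.

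Some of the highest ranks belong to annotation entries that share reads with another gene. Gm26377 ranked 2 at 7543 ± 2241 FPKM. It is a predicted miRNA gene of 108 bases at chr9:78478528-78478635 (GRCm38, minus strand), inside an exon of Eef1a1 on the same strand, and Eef1a1, a translation elongation factor, was itself at 1551 FPKM. Gm22133 ranked 7 at 3920 ± 425 FPKM and lies at chr7:45458089-45458197 (minus strand) inside an exon of the ferritin gene Ftl1, also on the same strand. Without division by length Gm26377 ranked 132 and Gm22133 ranked 302. Gm10925, a pseudogene copy of mt-Atp6 on chromosome 1, ranked 9 at 3310 ± 458 FPKM, and its counts stayed within 2.45% of those of mt-Atp6 in every library. The pairs mt-Co3 and Gm28437, and mt-Co2 and Gm28661, had counts within 0.126% and 0.0641% of each other. The levels of these genes, and of close paralogs such as Hba-a1 and Hba-a2 or Trbc1 and Trbc2, are therefore uncertain.

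**Figure D1:**
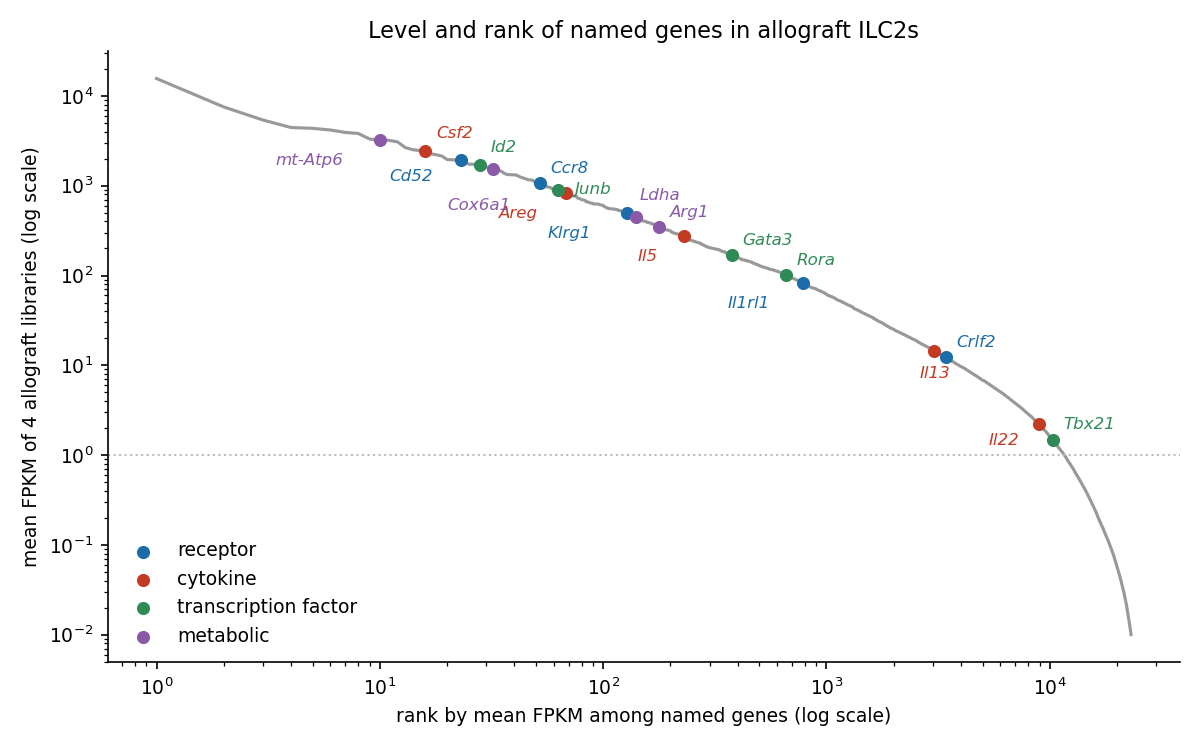
Mean FPKM over the 4 allograft libraries (vertical axis, log scale) against rank among named genes (horizontal axis, log scale), with selected members of the 4 gene classes as coloured points on the grey curve of all named genes with a mean of at least 0.01 FPKM and a dotted line at 1 FPKM. Csf2 (rank 16), Cd52 (rank 23) and Id2 (rank 28) sit on the upper part of the curve, while Il13 (rank 3042) and Crlf2 (rank 3419) sit far down.

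Receptor and surface molecule genes were led by a leukocyte antigen, chemokine receptors and the common cytokine receptor chain. The list held 225 genes, of which 223 were matched, 140 had a mean of at least 1 FPKM, 18 of at least 100 FPKM, and 8 no count. Together they took 2.12% ± 0.175 of the FPKM of named genes, and the 6 highest members held 56.0% of that. Cd52, a small antigen anchored in the membrane of lymphocytes and not a receptor in the strict sense, was highest at 2163, 1871, 1717 and 1944 FPKM (1924 ± 186). Ccr8, the receptor of the chemokine CCL1, followed at 1205, 1004, 1144 and 942 FPKM (1074 ± 122, rank 52). Il2rg, the signalling chain shared by the receptors of IL-2, IL-4, IL-7 and IL-9, was at 755, 555, 679 and 490.1 FPKM (620.0 ± 120, rank 96). Libraries 1 and 3 were the high ones for Ccr8 and Il2rg, with no overlap with libraries 2 and 4. The same split was found for 12 of 18 receptors and 225 of 657 named genes (34.2%) at 100 FPKM and more.

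Klrg1, an inhibitory lectin-like receptor for cadherins that marks mature ILC2s, was at 634, 410.1, 535 and 410.2 FPKM (497 ± 108, rank 128). Cxcr6, the receptor of CXCL16 that holds lymphocytes in tissue, was at 550.3, 408, 505 and 375 FPKM (459 ± 81.7, rank 137). Itgb7, the integrin β7 chain, was at 304, 208, 326 and 300.0 FPKM (285 ± 52.3, rank 220), with library 2 alone low. Each of these 6 genes, and Itgb7 over Tnfrsf18 (GITR, 205 ± 24.2 FPKM), stood above the next in all 4 libraries. From Tnfrsf18 downwards the order was not fixed: Tnfrsf18 exceeded the tetraspanin gene Cd53 in 3 of 4 libraries, and Cd53 exceeded Ramp3 in 2 of 4.

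Among the chemokine receptors Ccr8 exceeded Cxcr6 by 2.36 ± 0.153-fold within libraries, and Ccr7, the receptor that guides cells to lymph nodes, was at 99.8 FPKM. Ccr2 was at 54.5, Ccr4 at 10.5, Cxcr3 at 1.83 and Ccr6 at 0.352 FPKM. The alarmin and IL-1 family list, 8 of whose 14 members reached 1 FPKM, summed to 311 ± 15.8 FPKM. Its highest member was Il1r2, a decoy receptor that binds IL-1 without signalling, at 147, 103, 132 and 95.8 FPKM (119 ± 24.2). Il1r2 exceeded Il1rl1 in 4 of 4 libraries, by 1.53 ± 0.572-fold. This order rests on division by gene length, without which Il1rl1 ranked 212 and Il1r2 ranked 623. Il17rb was at 37.7 ± 2.86 FPKM and Crlf2 at 10.5, 12.6, 19.0 and 6.94 FPKM (12.3 ± 5.04). Crlf2 was thus the lowest and the least steady of the 3 alarmin receptors, with a CV of 41.2% against 16.5% for Il1rl1 and 7.60% for Il17rb. Il1rap, the chain that pairs with ST2 to signal, was at 0.505 ± 0.271 FPKM.

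Receptors of lymphocyte growth factors beside the common chain were far below it. Il7r was at 84.7, 143, 128 and 119 FPKM (119 ± 24.7), lowest in library 1, and Il2ra, the high-affinity IL-2 receptor chain, at 53.7, 48.1, 48.4 and 48.4 FPKM (49.6 ± 2.71). Il2rb was at 42.9, Il4ra at 19.1 and Il9r at 10.003 FPKM. The costimulatory and inhibitory molecules were led, after Cd52 and Cd53, by Pdcd1, the gene of the inhibitory receptor PD-1, at 222, 160.5, 176 and 118 FPKM (169 ± 43.0). Pdcd1 was highest in library 1 and lowest in library 4, and its CV of 25.4% was the highest among receptors with a mean of at least 100 FPKM. Icos was at 91.8, 106, 128 and 90.9 FPKM (104 ± 17.4) and Ctla4, another inhibitory receptor, at 77.7, 72.1, 81.1 and 74.4 FPKM (76.3 ± 3.93). Ctla4 was steady, with a CV of 5.15%. Tigit was at 37.6, Cd28 at 2.72 and Lag3 at 1.81 FPKM, and Cd274, the gene of PD-L1, which is a ligand and outside the receptor list, was at 13.4 ± 1.95 FPKM.

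Receptors of neuropeptides and lipid mediators formed the steadiest receptor list, with a median CV of 13.6% over 18 of its 29 members that reached 1 FPKM. Ramp3, an accessory protein of receptors of the calcitonin family, led it at 162, 196, 168 and 172 FPKM (174 ± 15.2). The leukotriene B4 receptor gene Ltb4r1 was at 148, the proton sensor gene Gpr65 at 115, Ramp1 at 88.1 and the cysteinyl leukotriene receptor gene Cysltr2 at 55.4 FPKM. The neuromedin U receptor gene Nmur1 was at 8.47 and the VIP receptor gene Vipr2 at 7.95 FPKM. No count was found for Ptgdr2 or Ptgdr, the prostaglandin D2 receptor genes, nor for Chrna7, Ffar3, Il13ra2, Il22ra1, Ackr4 or Tlr9. Interferon, IL-10 and TGF-β family receptors were led by Ifngr1 (47.3 ± 9.60 FPKM), and pattern recognition receptors by Tlr1 (6.43 ± 1.42 FPKM), with 3 of 13 of the latter at 1 FPKM or more.

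Cytokine genes were dominated by Csf2. The list of 112 genes was matched in full, 67 had a mean of at least 1 FPKM, 10 of at least 100 FPKM, and 10 no count. The list took 1.57% ± 0.0989 of the FPKM of named genes, and its 6 highest members held 76.0% of that. Without division by gene length, as CPM, the share was 0.881%. Csf2, the gene of GM-CSF, which drives granulocyte and macrophage growth, was at 2727, 2299, 2497 and 2229.8 FPKM (2438 ± 223, rank 16). It was the highest cytokine gene in every library. Areg, the gene of the repair factor amphiregulin, was at 874, 754, 795 and 921 FPKM (836 ± 75.6, rank 68). Csf2 exceeded Areg by 2.93 ± 0.344-fold within libraries. Cxcl2, a neutrophil attractant, was at 699, 594, 602 and 606 FPKM (625 ± 49.4), and Ccl17, which attracts CCR4-bearing cells, at 407, 418, 478 and 355 FPKM (414 ± 50.3).

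Below these the order was less firm. Mif, a broadly made cytokine, was at 347, 323, 279 and 308 FPKM (314 ± 28.7), and Calca, which encodes calcitonin and the neuropeptide CGRP, at 282, 277, 299.8 and 251 FPKM (277 ± 20.3). Il5, the gene of the eosinophil growth factor IL-5, was at 325, 227, 305 and 233 FPKM (273 ± 49.7, rank 229). Mif exceeded Calca in 3 of 4 libraries and Calca exceeded Il5 in 2 of 4, so these neighbours did not differ beyond their spread. Il5 was the least steady cytokine gene above 100 FPKM, with a CV of 18.2%, and its values in libraries 1 and 3 did not overlap those in libraries 2 and 4. Such a split, with libraries 1 and 3 higher, was found for 4 of 10 cytokine genes at 100 FPKM and more. Over all named genes of that level the share was 34.2%. Ccl5 (149.8 FPKM) and Ccl4 (142 FPKM) followed with CVs of 5.68% and 5.63%.

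The type 2 cytokine genes differed widely in level. Il4 was at 50.4, 42.8, 52.5 and 37.0 FPKM (45.7 ± 7.11, rank 1281). Il13, which drives mucus, fibrosis and alternative macrophage activation, was at 11.99, 14.3, 15.1 and 16.5 FPKM (14.5 ± 1.90, rank 3042). Il9 had counts in library 3 only, where it was at 0.486 FPKM. Within libraries Il5 exceeded Il4 by 5.97 ± 0.512-fold and Il13 by 19.3 ± 5.76-fold, and Il4 exceeded Il13 by 3.23 ± 0.823-fold, each in 4 of 4 libraries. The ratio of Il4 to Il13 ranged from 2.24 to 4.20, since Il13 was lowest in library 1 and highest in library 4 while Il4 was lowest in library 4.

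Ifng, Il10, Il17a and Il22, cytokine genes of other lymphocyte programmes, were all below Il5 and Il4, but Ifng and Il10 were near Il13 (14.5 ± 1.90 FPKM). Ifng, the type 1 cytokine gene, was at 14.1, 15.7, 9.66 and 11.99 FPKM (12.9 ± 2.62), and Il10, which encodes a suppressive cytokine, was at 13.5, 10.5, 15.1 and 9.63 FPKM (12.2 ± 2.54). Ifng was above Il13 in libraries 1 and 2 and below it in libraries 3 and 4. The type 3 genes Il17a and Il22 were at 5.58 ± 2.28 and 2.24 ± 1.66 FPKM, and Il22 had no count in library 3. Il2 was at 19.1 ± 4.00 FPKM. Il6 was the steadiest cytokine gene above 10 FPKM, at 46.1, 43.5, 45.0 and 43.4 FPKM (CV 2.87%). Ccl22, which shares the receptor CCR4 with Ccl17, was the least steady, at 25.6, 15.4, 25.6 and 13.5 FPKM (CV 32.4%), and Ccl17 exceeded it by 21.99 ± 5.57-fold. Of the TNF superfamily, Tnfsf9 (4-1BB ligand) was highest at 117 ± 16.2 FPKM, Ltb was at 94.6 ± 2.84 and Tnfsf4 (OX40 ligand) at 30.7 ± 7.26 FPKM. No count was found for Ereg, Tff3, Il3, Il21, Il24, Il25, Tslp, Ccl20, Ccl28 or Cxcl13.

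Several of the highest cytokine genes and their receptors were at unequal levels in the same libraries. Csf2 stood beside Csf2ra at 5.70, Csf2rb at 0.211 and Csf2rb2 at 0.147 FPKM, and Il5 beside Il5ra at 0.142 FPKM. Calca stood beside Calcrl at 4.76 and Ramp1 at 88.1 FPKM, which together form the CGRP receptor. On the receptor side, Ccr8 stood beside its ligand gene Ccl1 at 5.02 FPKM and Cxcr6 beside Cxcl16 at 9.96 FPKM. In the TNF families Tnfrsf18 was at 205 FPKM with its ligand gene Tnfsf18 at 0.951, Tnfsf9 was at 117 FPKM with its receptor gene Tnfrsf9 at 5.02, and Tnfsf4 at 30.7 and Tnfrsf4 at 53.9 FPKM were closest.

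Csf2, Il5, Il13 and Il4 lie in 1 region of chromosome 11, where genes with very different levels stand side by side. In RefSeq's GRCm38.p6 annotation Il4 spans chr11:53612460-53618665 (minus strand), Il13 spans chr11:53631323-53634702 (minus strand), Il5 spans chr11:53720794-53725103 (plus strand) and Csf2 spans chr11:54247270-54249899 (minus strand). Il3, a hematopoietic growth factor gene whose start lies 17.4 kb from that of Csf2, had no count in any library. Irf1, between Il5 and Csf2, was at 10.004 ± 2.42 FPKM, and Kif3a, next to Il4, at 6.26 ± 1.03 FPKM. Csf2 exceeded Il5 by 9.06 ± 0.928-fold, with a range over libraries of 8.18 to 10.1. The 250 bases before the starts of Csf2, Il5, Il13 and Il4 are shown for their letters only. Their part in the levels was not tested. Capitals mark matches to TATAAA, to the GATA-type letters AGATAA or TGATAA, or to the AP-1-type letters TGANTCA, searched on both strands.
Csf2 (chr11:54249900-54250149, minus strand): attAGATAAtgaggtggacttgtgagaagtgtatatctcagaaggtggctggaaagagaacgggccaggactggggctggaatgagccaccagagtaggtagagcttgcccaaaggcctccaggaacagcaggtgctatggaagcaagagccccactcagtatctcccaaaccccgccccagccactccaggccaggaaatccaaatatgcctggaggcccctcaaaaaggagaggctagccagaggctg
Il5 (chr11:53720544-53720793, plus strand): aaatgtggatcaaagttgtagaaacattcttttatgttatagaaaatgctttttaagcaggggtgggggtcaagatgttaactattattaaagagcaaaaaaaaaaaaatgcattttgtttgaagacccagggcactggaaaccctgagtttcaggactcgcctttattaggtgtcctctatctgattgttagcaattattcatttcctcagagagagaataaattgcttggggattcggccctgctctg
Il13 (chr11:53634703-53634952, minus strand): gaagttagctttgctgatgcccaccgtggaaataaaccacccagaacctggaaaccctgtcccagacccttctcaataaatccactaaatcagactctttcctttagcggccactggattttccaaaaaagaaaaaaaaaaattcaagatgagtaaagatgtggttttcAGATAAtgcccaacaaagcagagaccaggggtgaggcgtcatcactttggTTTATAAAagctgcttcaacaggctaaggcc
Il4 (chr11:53618666-53618915, minus strand): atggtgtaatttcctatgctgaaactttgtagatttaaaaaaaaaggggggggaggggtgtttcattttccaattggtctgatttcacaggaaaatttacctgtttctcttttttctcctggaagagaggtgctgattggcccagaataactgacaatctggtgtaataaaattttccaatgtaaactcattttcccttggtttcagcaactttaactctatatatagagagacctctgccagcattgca

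The Csf2 window held AGATAA at 247 to 242 bases before the start. The Il13 window held AGATAA at 81 to 76 bases and TATAAA at 29 to 24 bases before the start, with an overlapping TATAAA on the other strand at 31 to 26 bases. Neither the Il5 nor the Il4 window held any of the 4 motifs. Of the 32851 promoters of the same length in the RefSeq table, 12.4% held TATAAA, 9.99% AGATAA, 7.94% TGATAA and 6.75% TGANTCA. These matches describe letters in these windows and say nothing of binding.

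**Figure D2:**
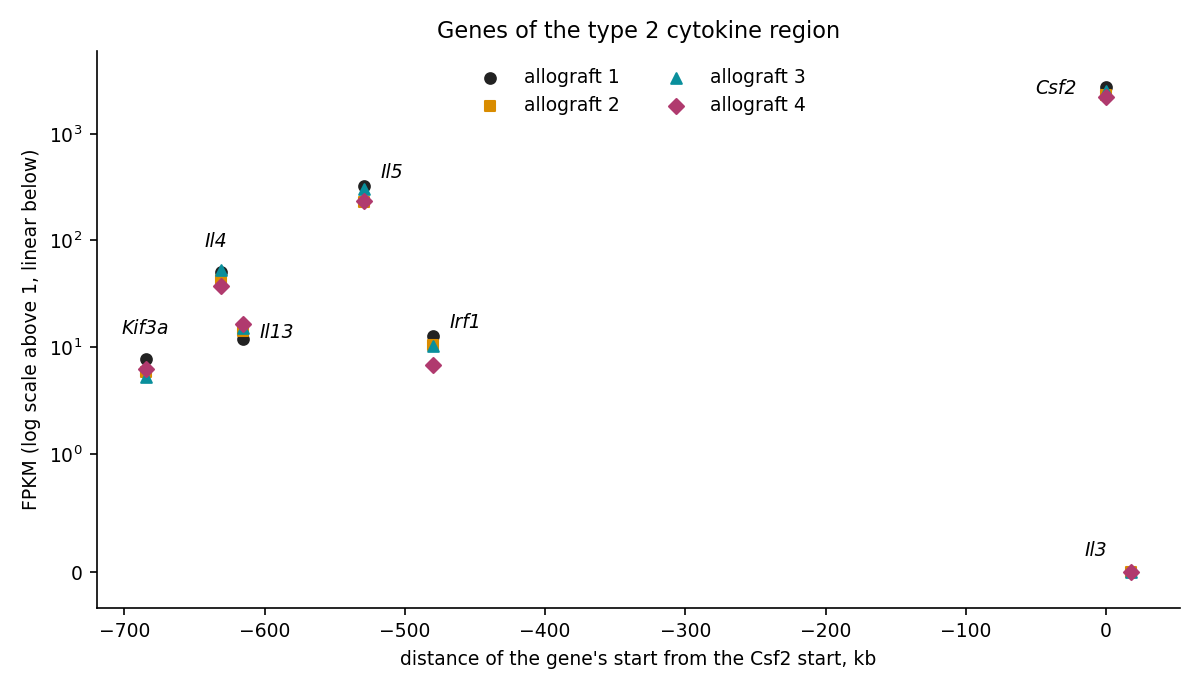
FPKM of 7 genes in each of the 4 allograft libraries (vertical axis, log scale above 1 and linear below) against the distance of each gene's start from the Csf2 start in kb (horizontal axis). Csf2 lies between 2229.8 and 2727 FPKM, Il5 between 227 and 325, Il4 and Il13 lower, and Il3, 17.4 kb from Csf2, at 0 in every library.

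Transcription factor genes combined the ILC identity factors with immediate early genes. The list held 148 genes, of which 147 were matched, 130 had a mean of at least 1 FPKM and 19 of at least 100 FPKM, and only Gata1 had no count. They took 2.27% ± 0.144 of the FPKM of named genes, and the 6 highest held 56.3% of that. As CPM the share was 3.59%. After Id2 came Junb and Fos, AP-1 subunits, at 1120, 784, 896 and 769.6 FPKM (892 ± 162) and at 948, 898, 944 and 706 FPKM (874 ± 114). Junb exceeded Fos in 2 of 4 libraries, so their order was not fixed. Jund was at 688, 661, 697 and 596 FPKM (661 ± 46.0), and Sub1, a transcriptional coactivator gene, at 623, 571, 599 and 526 FPKM (580 ± 41.6). Nr4a1, an orphan nuclear receptor gene induced by stimulation, was at 641, 444, 533 and 417 FPKM (509 ± 101). Id2, Junb, Fos, Sub1 and Nr4a1 had the same order of libraries, with 1 highest, then 3, 2 and 4.

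The grafts were dissociated mechanically and with enzymes before the sort, and a list of 22 genes known to respond to dissociation was measured beside these factors. It summed to 13195, 11616, 11640.3 and 11332 FPKM (11946 ± 844), and all 22 members reached 1 FPKM. The list holds Fos, Junb, Jund, Nr4a1, Ier2 and Nfkbia as well as the heat shock genes Hspa1a (644 ± 85.4 FPKM) and Hsp90ab1 (792 ± 122 FPKM). Its summed level was highest in library 1, but its members did not share an order of libraries. Junb and Nr4a1 were highest in library 1, Jun in library 2, Jund in library 3 and Hsp90ab1 in library 4. The part of dissociation in the level of these factors was not tested.

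The ILC2 and shared ILC factors numbered 37 of 40 at 1 FPKM or more and summed to 3179 ± 148 FPKM. Behind Id2 stood Klf6 at 300.4 ± 19.9, Gata3 at 169, Batf at 139 and Nfil3, which is needed for ILC precursors, at 121 FPKM. Gata3 exceeded Batf in 4 of 4 libraries, whereas Btg1 and Gata3 exceeded each other in 2 libraries each. Pparg, a lipid sensor of ILC2s, was at 43.6, 27.7, 33.8 and 25.6 FPKM (32.7 ± 8.09). Bcl11b was at 7.38, 13.4, 10.01 and 12.2 FPKM (10.8 ± 2.65). Ets1 was the steadiest factor above 10 FPKM, at 48.2, 46.0, 47.5 and 47.0 FPKM (CV 1.98%), and Runx3 the least steady, at 16.3, 6.96, 23.6 and 28.3 FPKM (CV 49.5%).

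Factors of other lineages were low. Tbx21, the type 1 master factor gene, was at 2.74, 1.49, 0.5995 and 1.09 FPKM (1.48 ± 0.918), and Gata3 exceeded it by between 59.4-fold and 257-fold. Eomes was at 0.471 ± 0.416 and Foxp3 at 0.0195 ± 0.0264 FPKM. Of the 23 listed factors of other lineages 22 were matched, and 10 reached 1 FPKM, led by Cebpb at 92.6 ± 8.55 FPKM. All 11 NF-κB and NFAT genes reached 1 FPKM, led by Nfkbiz at 92.2, 143, 122 and 137 FPKM (124 ± 22.7), and all 14 STAT and IRF genes, led by Stat4 at 34.9 ± 5.09 FPKM. Nfkbiz was lowest in library 1. At 1 FPKM and more, library 1 was the lowest library for 52 of 130 transcription factor genes and 3216 of 11608 named genes.

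**Figure D3:**
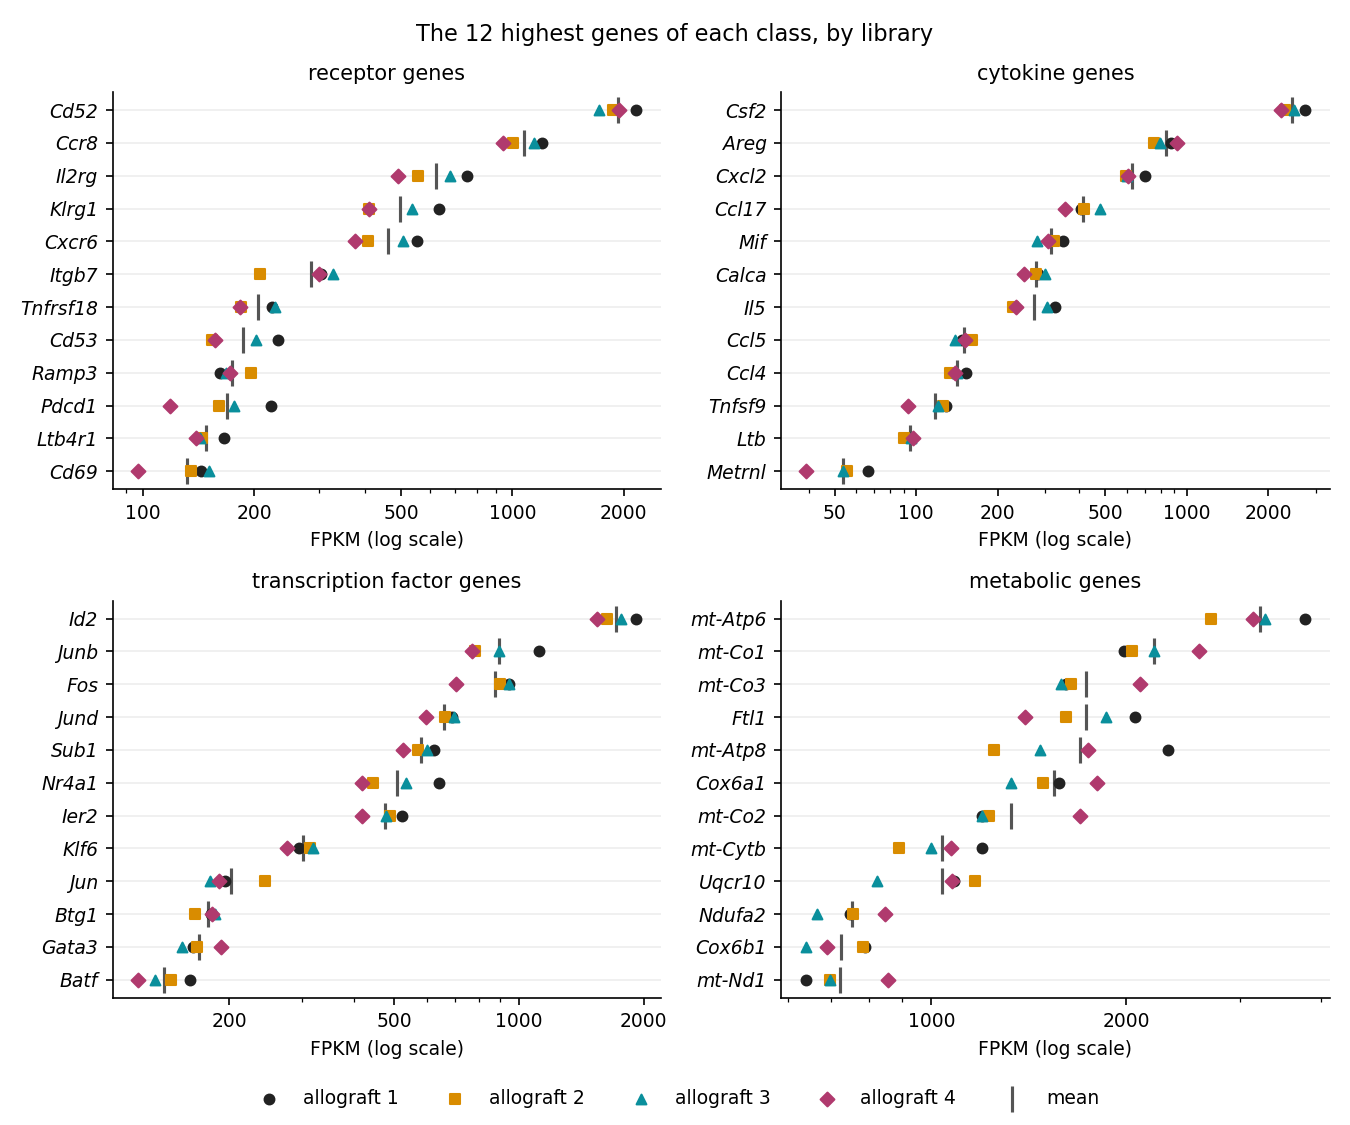
FPKM (horizontal axis, log scale) of the 12 highest genes of each class, with 1 symbol per allograft library and a vertical bar at the mean. Library 1 (black circles) lies at the right for Cd52, Ccr8, Il2rg, Klrg1 and Cxcr6, library 2 alone lies at the left for Itgb7, and among cytokine genes Il5 is spread from 227 to 325 FPKM while Ccl5 and Ccl4 stay within narrow ranges.

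Metabolic genes were dominated by the respiratory chain and by ferritin. Of 272 listed genes 271 were matched, 239 had a mean of at least 1 FPKM and 79 of at least 100 FPKM. The list took 9.19% ± 0.312 of the FPKM of named genes, more than the receptors, cytokines and transcription factors each took. The highest member was mt-Atp6, an ATP synthase subunit gene on the mitochondrial chromosome, at 3774, 2701, 3274 and 3140.5 FPKM (3222 ± 442). The cytochrome oxidase gene mt-Co1 was at 1985, 2039.7, 2203 and 2589 FPKM (2204 ± 273). Ftl1, the ferritin light chain that stores iron, was at 2062, 1613, 1862 and 1396 FPKM (1733 ± 290.1), level with mt-Co3 at 1734 ± 244 FPKM, which exceeded it in 2 of 4 libraries. The ATP synthase gene mt-Atp8 (1696 ± 462 FPKM) and the nuclear cytochrome oxidase gene Cox6a1 (1574, 1488, 1327 and 1803 FPKM, mean 1548 ± 198) completed the 6 highest.

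All 71 matched nuclear genes of oxidative phosphorylation reached 1 FPKM and summed to 14802 ± 885 FPKM, beside 13797 ± 1393 FPKM for the 13 mitochondrial ones. The nuclear genes were the steadiest list of all 4 classes, with a median CV of 10.5%. Examples from complexes III, I and IV were Uqcr10 at 1037, Ndufa2 at 755 and Cox6b1 at 726 FPKM. The lowest nuclear member was Ndufs1 at 5.34 FPKM. Cox5a was the steadiest metabolic gene above 10 FPKM, at 243, 244, 249.8 and 254 FPKM (CV 2.07%). Mitochondrially encoded genes held 4.47% of all FPKM in library 1 and 4.90% to 5.79% in the others.

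Glycolysis genes summed to 1382 ± 154 FPKM, with 23 of 24 at 1 FPKM or more. Ldha, which turns pyruvate into lactate, led at 514, 422, 455 and 400.0 FPKM (448 ± 49.6, rank 140) and exceeded its counterpart Ldhb by 12.6 ± 0.924-fold. Gapdh was at 170.1, Aldoa at 160.2 and Pkm at 149.9 FPKM, while the glucose transporter gene Slc2a1 was at 13.7 and the hexokinase gene Hk2 at 2.82 FPKM. The citrate cycle summed to 1001 ± 133 FPKM and was led by Mdh2 (malate dehydrogenase) at 197, 157, 177 and 145 FPKM (169 ± 22.8). Idh2, an isocitrate dehydrogenase of the same list, was the least steady metabolic gene above 10 FPKM, at 13.3, 11.9, 22.8 and 12.3 FPKM (CV 34.5%).

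Arginine use was led by Arg1. The gene encodes arginase 1, which splits arginine into urea and ornithine and is a known ILC2 enzyme, and it was at 385, 296, 351 and 338 FPKM (343 ± 36.6, rank 178). Odc1, which carries ornithine on to polyamines, was at 137 and the amino acid transporter chain gene Slc3a2 at 188 FPKM. Arg2 was at 0.539 and Nos2, the competing nitric oxide synthase gene, at 0.138 FPKM, with no Nos2 count in libraries 2 and 4. The amino acid list summed to 1133 ± 31.8 FPKM.

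The fatty acid list summed to 866 ± 44.9 FPKM, with 24 of 34 members at 1 FPKM or more, and was led by Etfb, an electron carrier of fatty acid oxidation, at 224, 232, 263 and 196 FPKM (229 ± 27.9). Dgat1, which makes triglycerides, was at 134, 230.4, 149 and 204 FPKM (179 ± 45.7), low in libraries 1 and 3. Libraries 1 and 3 were below libraries 2 and 4 for 11 of 79 metabolic genes and 23.9% of named genes at 100 FPKM and more. Cpt1a, the entry enzyme of mitochondrial fatty acid oxidation, was at 4.00 FPKM and Ppara had no count. Lipid synthesis was led by Elovl5 (74.1 ± 8.91 FPKM), and eicosanoid synthesis by Ptges3 (39.1 ± 4.44 FPKM), a chaperone gene also named for prostaglandin synthesis. The prostaglandin synthase gene Ptgs2 was at 19.9, the leukotriene genes Alox5ap, Lta4h and Alox5 at 26.8, 17.0 and 16.5, and Hpgds at 1.14 FPKM. Redox and nucleotide genes, ferritin included, summed to 4411 ± 559 FPKM.

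The steadiness of a gene depended on its level, so each class was set beside all named genes of the same level. Over all named genes the median CV was 28.1% at 1 to 10 FPKM, 16.2% at 10 to 100 FPKM and 12.1% at 100 FPKM and more. Transcription factors had median CVs of 24.0%, 15.3% and 12.5% in these bands, and metabolic genes of 23.5%, 15.8% and 11.8%. Receptors had 25.1%, 15.5% and 17.9%. The 18 receptors at 100 FPKM and more thus had a higher median CV than all named genes of that level. Cytokine genes showed the widest range, with 34.9%, 18.8% and 9.10%, so that the 10 cytokine genes at 100 FPKM and more had a lower median CV than all named genes of that level. Without the division into bands the medians were 19.3% for receptors, 20.95% for cytokines, 19.6% for transcription factors and 14.6% for metabolic genes, beside 22.8% for all named genes, and cytokine genes above 10 FPKM had 13.8%. Klrb1b (CV 2.52%) was the steadiest receptor gene above 10 FPKM. Itgal, an integrin chain gene, was the least steady, at 7.78, 6.72, 5.89 and 20.95 FPKM (CV 68.9%), with library 4 alone high.

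**Figure D4:**
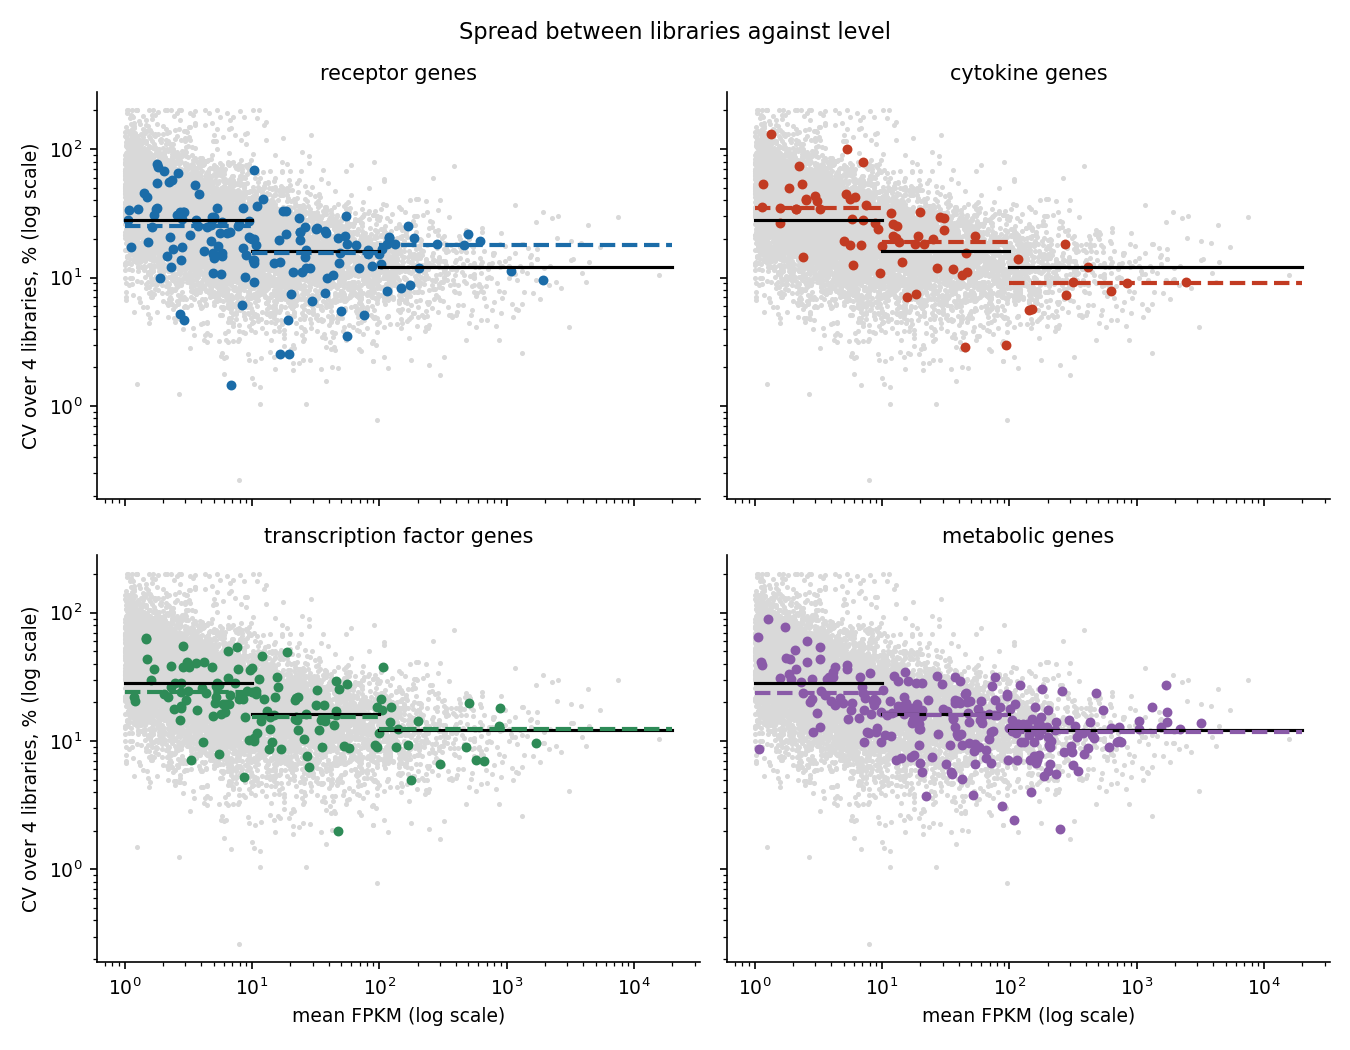
CV over the 4 allograft libraries in percent (vertical axis, log scale) against mean FPKM (horizontal axis, log scale) for the members of each class (coloured points) and all named genes with a mean of at least 1 FPKM (grey points). Black bars give the median CV of all named genes and dashed coloured bars that of the class in the bands 1 to 10, 10 to 100 and 100 FPKM or more; the dashed bar of the cytokines falls from above the black bar (34.9% against 28.1%) to below it (9.10% against 12.1%).

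Many leading genes shared an order of libraries. They were highest in library 1, then 3, 2 and 4, which is also the order of the total counts. Among all 657 named genes at 100 FPKM and more, 110 (16.7%) had this order and 45 (6.85%) its reverse. Among receptors of that level it was 6 of 18 (Ccr8, Il2rg, Cxcr6, Pdcd1, Il1r2 and Selplg), among transcription factors 6 of 19, among cytokines 1 of 10 (Csf2) and among metabolic genes 17 of 79. After rescaling with TMM factors, which lay between 0.975 and 1.02, 17.7% of all named genes of that level had the order, and 7 of 18 receptors. Library 1 was the highest library for 46.4% of metabolic, 41.8% of cytokine, 32.9% of receptor and 18.5% of transcription factor genes at 1 FPKM and more, beside 27.3% of all named genes. These shares were not matched for level. Of 239 metabolic genes 179 were at 10 FPKM and more, against 3914 of 11608 named genes. The order of total counts was held by 6.29% of named genes at 1 FPKM and more and by 11.8% at 10 FPKM and more. Gene length moved with library 1 as well: across 3914 genes at 10 FPKM and more, Spearman's rho between length and the deviation of library 1 from the other libraries was -0.172, and 0.153 for library 3. The part of depth and of gene length in this order was not tested.

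Markers of other cells were measured because the sort selects on 3 surface features only. The 12 lists together held 1.00% ± 0.0567 of the FPKM of named genes, 0.480% as CPM and 0.619% with protein-coding genes alone. T cell genes summed highest, at 1409, 1321, 1469 and 1233 FPKM, led by Trbc1 (605 ± 52.4 FPKM), a constant region gene of the T cell receptor. Trbc2, the other such gene, was at 550.3, the signalling adaptor gene Lat at 92.8, the CD3 chain gene Cd3g at 51.3 and the γ chain constant gene Tcrg-C1 at 38.2 FPKM. Trac, the α chain constant gene, was at 14.4, Cd3d at 2.84, Cd8a at 0.156, Cd3e at 0.113 and Cd4 at 0.0380 FPKM, with Cd4 counts in library 4 only. Of the 14 genes of the list 8 reached 1 FPKM, so its members ranged from high to near absent. B and plasma cell genes summed to 805 to 1174 FPKM, led by Igkc (661 ± 106 FPKM), with Cd79b at 24.7 FPKM. Eosinophil genes summed to 520, 265, 233 and 446 FPKM, led by Retnla at 322, 156, 151 and 307 FPKM (234 ± 93.2), and by the granule protein gene Prg2 at 149, 84.7, 67.6 and 112 FPKM (103 ± 35.4). Libraries 1 and 4 were the high ones for both. Siglecf was at 0.347 and Il5ra at 0.142 FPKM, and 8 of the 10 genes of the list reached 1 FPKM.

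Mast cell and basophil genes summed to 162 ± 9.18 FPKM (Cpa3 46.8 ± 14.3), and NK cell and ILC1 genes to 251 ± 39.8 FPKM (Gzma 195 ± 27.8). Macrophage genes summed to 139 ± 32.8 FPKM (Lyz2 96.7 ± 19.9), neutrophil genes to 132 ± 34.5 FPKM (Retnlg 67.8 ± 16.3) and dendritic cell genes, among them the cytokine gene Ccl22, to 41.1 ± 8.10 FPKM. In these lists too the members ranged from high to near absent. A mean of 1 FPKM was reached by 9 of 12 mast cell and basophil genes and 9 of 10 NK cell and ILC1 genes. It was reached by 8 of 14 macrophage, 5 of 11 neutrophil and 8 of 11 dendritic cell genes. In the NK cell list Tbx21 was at 1.48 and Eomes at 0.471 FPKM. The macrophage gene Csf1r was at 0.217 and the neutrophil gene Csf3r at 0.0317 FPKM. Erythroid and platelet genes summed to 635 ± 65.5 FPKM, led by Hba-a1 (381 ± 36.6 FPKM), while Gp9 had no count, and the neutrophil gene Elane had none either. Heart tissue left little: the 15 cardiomyocyte genes summed to 4.79, 2.71, 1.88 and 1.33 FPKM, led by Actc1 (1.10 ± 0.981), and Myh6, Tnnt2, Myl2, Myl3, Mb, Nppb and Ryr2 had no count in any library. Endothelial genes summed to 9.58 ± 1.31 FPKM (Pecam1 4.84 ± 0.624) and fibroblast and mural genes to 38.7 ± 3.11 FPKM (Gsn 28.8 ± 3.96). The part of these cells in the levels of shared genes, such as Gzma and Ccl22, was not tested.

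**Figure D5:**
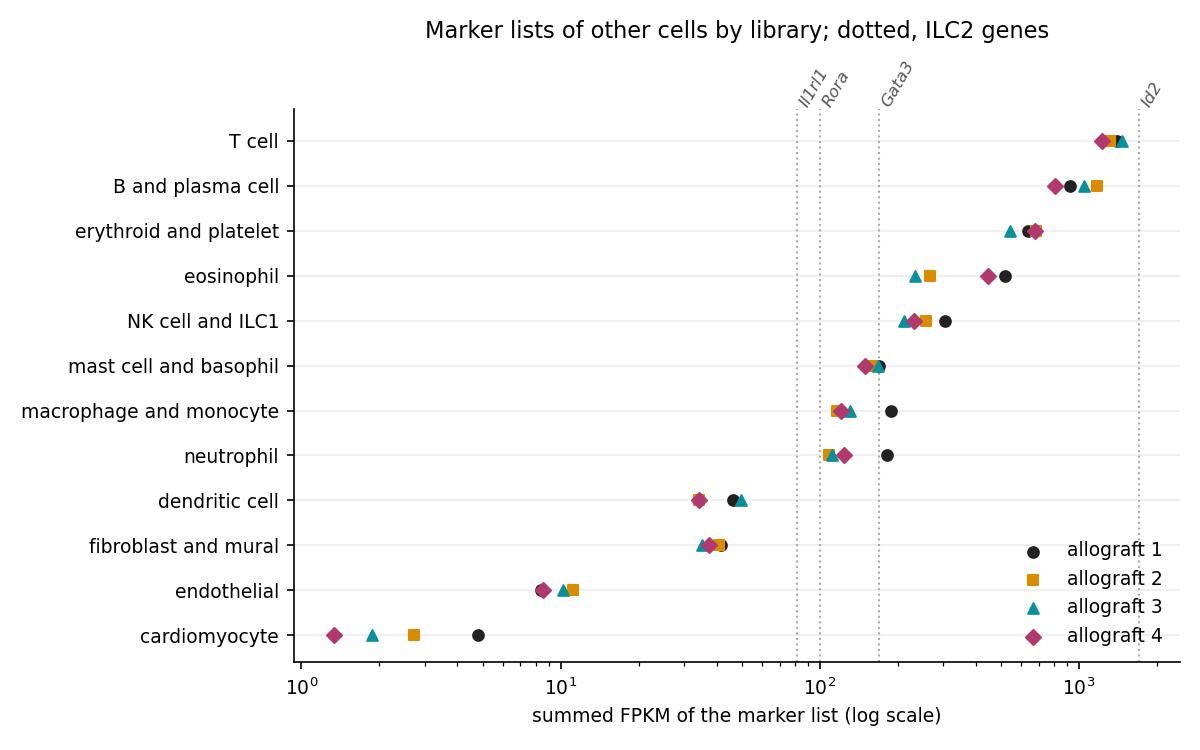
Summed FPKM of 12 marker lists of other cells (horizontal axis, log scale), with 1 symbol per allograft library and dotted lines at the mean FPKM of the single genes Il1rl1, Rora, Gata3 and Id2. The T cell list lies between 1233 and 1469 FPKM, the eosinophil list spreads from 233 to 520, and the cardiomyocyte list stays between 1.33 and 4.79.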

How the data were processed

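Per the labels, small-scale RNA extraction and single-cell cDNA amplification preceded sequencing. Per the submitters' processing notes, FastQC 0.11.5, STAR 2.5.3a, StringTie 1.3.1c, DESeq2 1.16.1 and the build mm10 were used, with no role stated. Whether reads were counted by strand is not given in the sources used here. The authors deposited raw counts per gene and FPKM values for 55335 identifiers. The gene length implied by both was 1.16 times the merged exon length (GENCODE M21) in the median, within 5% of this for 99.4% of the 10193 genes that passed 100 counts throughout. Reads carry no molecular identifiers, so the floor of 3 counts covers counting error only.

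Of the identifiers, 3225 had no symbol and were not ranked, 160 shared a symbol with another (lists used the one with the higher mean), and 26 symbols had been turned into dates. Lists held 950 names, of which 946 were matched. Means, SDs and CVs were computed with pandas 2.3.3 and numpy 2.4.6 (Python 3.11.15) by code tested on simulated data, and TMM factors with edgeR 4.0.16 (R 4.3.3). Neighbours in rank were called apart where the higher exceeded the lower in 4 of 4 libraries. Beside Dixon's criterion for a library that stands apart, no test was run, since an exact sign-flip test over 4 libraries cannot give a p below 0.125.

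The rule for named genes took the 10 highest of all, the 6 highest of each class, the highest of each list, the steadiest and least steady of each class above 10 FPKM (5 each over all genes), a fixed set of ILC2 genes, and the highest and absent members of each list of other cells. Further list members, the ligand and receptor pairs and the order of libraries were chosen after their values were seen, and all members and lists with earlier results of these data known. Alternatives were other scalings (TPM, TMM, no division by length, no mitochondrial or ribosomal protein genes), medians, minima of 0.1 and 10 FPKM, log scales with pseudocounts of 0.1 and 1, subtraction of counting error, and leaving out each library. The longest transcript as length and protein-coding genes only were added after seeing the data. Promoter sequences and positions in the cytokine region came from RefSeq (GRCm38.p6).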

Additional observations from a re-analysis of the deposited data

Results flagged for a closer look

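For 153 values, the named genes and the list sums, the 4 libraries were searched for 1 library that stood apart from the other 3 by Dixon's criterion at the 5% level. It was met by 15. Chance meets it for about 1 in 20 values, but 7 of the 15 are genes named for their high CV, and list sums hold some of the named genes, so the number that chance would give here is not known. Library 1 was high for Nfkbia (4749 FPKM, others 3924 to 4045), Cxcl2 (699, others 594 to 606), Il2ra (53.7, others 48.1 to 48.4), the costimulatory and inhibitory receptors (summed 3268, others 2754 to 2786) and the dissociation list (summed 13195, others 11332 to 11640.3). Library 4 was high for Itgal (20.95 FPKM, others 5.89 to 7.78) and mt-Co3 (2098, others 1582 to 1644) and low for the fatty acid list (summed 799, others 882 to 891). Library 3 was high for Idh2 (22.8 FPKM, others 11.9 to 13.3) and was the single library with Il9 counts (0.486 FPKM, others 0). Of the CV extremes over all genes, 5 immunoglobulin variable genes were each high in a single library: Ighv1-5 (40.6 FPKM in library 1, others 0), Igkv6-14 (45.1 in library 1, others 0), Igkv8-27 (41.2 in library 2, others at most 5.69), Igkv3-4 (39.7 in library 2, others at most 2.14) and Igkv6-20 (44.4 in library 3, others at most 5.08).

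Identifiers without a symbol were not ranked. Of these, 193 had a mean of at least 1 FPKM, and all 3225 together held 0.529% to 0.551% of all FPKM in the 4 libraries.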

How the results depend on the processing

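No paired analysis was possible because no groups were compared. TPM, TMM scaling and medians left the 6 highest genes of each class as they were. Without division by length 5 of the 6 stayed for receptors, cytokines and transcription factors and 4 for metabolic genes, and with the longest transcript as length 5 stayed for receptors and 6 for the others. Of 104 named genes, 76 ranks moved beyond their spread over libraries without division by length (B2m from 3 to 10, Csf2 from 16 to 41, Ccl17 from 149 to 669, mt-Atp8 from 29 to 398), and 64 with the longest transcript. A minimum of 0.1 FPKM kept 18556 named genes and a minimum of 10 FPKM kept 3914. The latter lowered the median CV of cytokine genes to 13.8%. Without mitochondrial and ribosomal protein genes the shares were 2.45% (receptors), 1.82% (cytokines), 2.63% (transcription factors), 6.76% (metabolic genes) and 1.17% (other cells), and 2 of the 6 highest metabolic genes stayed among the 6 highest. As counts scaled to the library total and not divided by length, the shares were 0.881% (cytokines), 3.59% (transcription factors), 6.63% (metabolic genes) and 0.480% (other cells). Among the alternatives added after seeing the data, the longest transcript as length gave 1.26% (cytokines), 1.99% (transcription factors) and 0.852% (other cells). Protein-coding genes alone gave 2.68% (receptors), 2.00% (cytokines), 2.88% (transcription factors), 11.7% (metabolic genes) and 0.619% (other cells). Leaving out each library in turn gave 11544 to 11679 genes at 1 FPKM, median CVs of 17.3% to 19.0% (receptors), 19.9% to 22.4% (cytokines), 14.7% to 19.8% (transcription factors) and 12.8% to 15.3% (metabolic genes), and kept all 6 highest genes of each class except among cytokines, where 5 stayed without library 2. All 4 ILC2 markers ranked among the 1000 highest genes under every alternative run on ranks. Levels compared between genes rest on the length the authors used, and the number of pools limits every SD.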

Other observations

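Proliferation genes were transcribed in all libraries: all 27 listed cell cycle genes reached 1 FPKM and summed to 1290 ± 101 FPKM (SD, n = 4), led by the histone variant gene H2afz (320.4 FPKM). Members did not share an order of libraries. The proliferation marker gene Mki67 was at 14.1, 23.6, 16.7 and 24.2 FPKM and the mitotic cyclin gene Ccnb2 at 63.8, 45.3, 57.7 and 39.6 FPKM. Among replication genes, Rrm2 was at 56.7, 30.7, 45.4 and 32.3 FPKM and Mcm3 at 26.5, 31.6, 20.3 and 30.5 FPKM. Interferon stimulated genes summed to 701 ± 10.9 FPKM with 20 of 30 at 1 FPKM or more, led by Ly6e (389.9 FPKM). The list was steady in sum while single members were not: Usp18 was at 6.76, 1.25, 2.69 and 2.88 FPKM.

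Among the 25 least steady named genes at 10 FPKM and more, 11 were immunoglobulin variable genes. Others outside every list, chosen after their values were seen, were Scgb1a1, a secretory protein gene of airway club cells, at 331, 85.8, 362 and 772 FPKM, and Fam107b at 43.6, 146, 160 and 15.3 FPKM. The steadiest were Chchd1 (CV 0.778%), AC152949.2 (1.04%), Lrrfip1 (1.04%), Ugp2 (1.40%) and R3hdm4 (1.47%). Among the 40 highest genes outside the lists, also chosen after their values were seen, Hilpda, a lipid droplet gene induced by hypoxia, was at 1639, 1373, 1499 and 1277 FPKM, and Selenow, a selenoprotein gene, was steady at 1281, 1361, 1315 and 1340 FPKM (CV 2.59%).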
